A study of Caenorhabditis elegans with 8 samples.

Results

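Acid phosphatases are enzymes that remove phosphate groups from their substrates at low pH, and many of them act in the lysosome, at the cell surface or in the gut lumen. In Caenorhabditis elegans they form a large family of histidine acid phosphatase genes, named acp and pho, of which pho-1 is the best studied: it encodes the acid phosphatase of the intestine and is a classical target of the GATA factor ELT-2. The 8 genes described here are acp-1, acp-2, acp-3, acp-4, acp-5, acp-6, acp-7 and pho-1, taken by name from the 46904 genes of the deposited table. The question was whether the others vary with acp-6. acp-6 drew attention through its values: it is 1 of 15 genes with an adjusted p under 0.1 in the authors' deposited table (0.113% of 13217 genes with a p, and 0.0832% counting the 11 higher under cpr-6 RNAi), so its difference between the groups is a description here and carries no support of its own. The gene just inside that limit was col-140 (adjusted p 0.0890) and the genes just outside were T28D6.3 and atic-1 (0.104 each), all from the authors' deposited table, where acp-6 stands at 0.0758. The other 7 genes entered by name.

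RNA came from 8 pools of whole worms of the strain CL2006, a transgenic line in which a muscle promoter drives human amyloid beta peptide. All 8 libraries therefore carry the transgene. In 4 libraries the worms had eaten bacteria expressing RNAi against cpr-6, which encodes a cathepsin B-like protease, and in the other 4 they had eaten bacteria with the empty vector. Both groups were kept at 20 °C on their bacteria for a generation before the worms sampled, which were moved daily away from their progeny and taken on day 6 of adulthood. The labels call the genotype WT, beside the strain name. The series text speaks of biological repeats, but nothing ties a replicate number to a culture, so a p here speaks of library-to-library spread, which may be technical. The libraries were made by CEL-Seq2, a method that counts transcripts by their 3′ ends.

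The libraries held 8184412 to 10837163 counts under cpr-6 RNAi and 9489866 to 12506320 with the empty vector, and the cpr-6 transcript stood at 81.7 ± 14.7 CPM under cpr-6 RNAi, against 758 ± 22.5 CPM with the empty vector (SD, n = 4 each), as the treatment labels say. CPM are counts scaled to a common library size, here with the TMM correction for composition of the R package edgeR. cpr-6 RNAi replicate 4 lay apart from the rest: mitochondrial transcripts took 2.14% of its counts and 0.805% to 1.16% in the other 7, its score on the first principal component was 40.7 against -19.7 to 5.16, and its summed germline markers (5 of 5 seen in all libraries) reached 1997 CPM against 2551 to 2966 CPM elsewhere. The 4 body wall muscle markers, all seen in all libraries, summed to 4017 to 5212 CPM under cpr-6 RNAi and to 2640 to 4697 CPM with the empty vector, where replicates 1 and 2 were lowest. Most of this sum was unc-54, at 3574 CPM under cpr-6 RNAi and 2879 CPM with the empty vector on average. Whether counts of muscle genes such as unc-54 hold transcripts of the transgene was not tested. Log2 fold changes were 0.31 for unc-54, 0.05 for myo-3, 0.20 for unc-15 and 0.57 for the scarce hlh-1. The 12 intestine markers, also all seen, summed to 2321 to 2879 CPM under cpr-6 RNAi and to 2448 to 2705 CPM with the empty vector. asp-1 and cpr-1 made up most of that sum, at 961 and 596 CPM under cpr-6 RNAi and 997 and 658 CPM with the empty vector on average. Of the 12 single markers, 7 had a log2 fold change above 0 and 5 below, from -0.25 (ges-1) to 0.38 (act-5). Their Pearson r with the log2 level of acp-6 over the 8 libraries ran from -0.38 (ges-1) to 0.81 (vha-6), with a median of 0.45. In such pools, fewer cells of a type and less RNA per cell cannot be told apart.

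acp-6 supplied most of the transcripts of the 8 genes. It lies on chromosome IV (WBcel235, 6424600 to 6426139, minus strand, WBGene00022245) and has a single annotated transcript of 6 exons and 1231 bases that encodes 381 residues, with a 3′ UTR at 6424600 to 6424682. A noncoding RNA gene, Y73B6BL.275, overlaps it on the other strand and had 2 counts in all 8 libraries. The deposited table describes it only as a member of the acid phosphatase family, with no gene ontology term. acp-6 took 86.5%, 85.9%, 86.9% and 89.2% of all counts of the 8 genes in cpr-6 RNAi replicates 1 to 4, and 84.1%, 83.2%, 83.3% and 85.6% in empty vector replicates 1 to 4. The lowest share under cpr-6 RNAi was that of replicate 2 (exact 95% Clopper-Pearson interval 84.4% to 87.3%). It lay just above the highest with the empty vector (replicate 4, 84.3% to 86.9%). Their intervals, which cover counting error only, overlapped. Because acp-6 was chosen for its difference between these groups and made up most of these counts, this order is a description too and carries no support. By level with the empty vector, acp-6 stood at percentile 90.5 of the 10932 genes tested.

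The other members were far scarcer. With the empty vector acp-7 stood at 15.2 ± 3.41 CPM, pho-1 at 10.9 ± 3.05 CPM, acp-5 at 3.97 ± 0.980 CPM, acp-1 at 3.75 ± 0.507 CPM and acp-2 at 2.04 ± 0.588 CPM (SD, n = 4), or from percentile 14.4 (acp-2) to percentile 49.1 (acp-7) of the levels of tested genes. Their annotated transcripts are alike in length (1231 to 1511 bases for these 6 genes). Per kilobase of the longest transcript the order with the empty vector was the same, with 154 CPM per kb for acp-6, 10.5 for acp-7, 7.19 for pho-1, 2.85 for acp-5, 2.72 for acp-1 and 1.48 for acp-2. Since CEL-Seq2 counts 3′ ends, counts need not grow with transcript length, so the values per kilobase are no check of the order. acp-7 and pho-1 overlapped in their spread, as did acp-5 and acp-1, whose order turned round under cpr-6 RNAi. acp-3 had 7 counts in all 8 libraries together, with 0 to 2 in each, and acp-4 had 0 of 82800951 counts. A count of 0 allows up to 3 counts, or 0.0363 CPM over all 8 libraries for acp-4 and 0.242 to 0.363 CPM in a single one. At this depth acp-4 was not detectable and acp-3 was a trace, and the other 6 genes passed the filter on low counts.

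acp-6 stood higher on average under cpr-6 RNAi, but the groups overlapped. Its level was 270, 197, 253 and 393 CPM in cpr-6 RNAi replicates 1 to 4, against 156, 174, 219 and 208 CPM in empty vector replicates 1 to 4. Of the cpr-6 RNAi libraries, 3 exceeded every empty vector library, and replicate 2 lay below empty vector replicates 3 and 4. The means were 278 ± 82.4 CPM under cpr-6 RNAi and 189 ± 29.3 CPM with the empty vector (SD, n = 4 each), a log2 fold change of 0.56 ± 0.195 (SE), or 1.47-fold. Across all genes edgeR's quasi-likelihood test gave acp-6 an adjusted p of 0.997, at rank 145 by p, and it called 0.00915% of genes, which is cpr-6 alone. The authors' deposited table has a log2 fold change of 0.53 ± 0.134 (SE) for acp-6, at rank 14 by p. Replicates 1 and 2 alone gave a log2 difference of 0.49, and replicates 3 and 4 alone gave 0.56. Without cpr-6 RNAi replicate 4 the log2 fold change was 0.34 ± 0.145 (edgeR adjusted p 0.935).

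**Figure D1:**
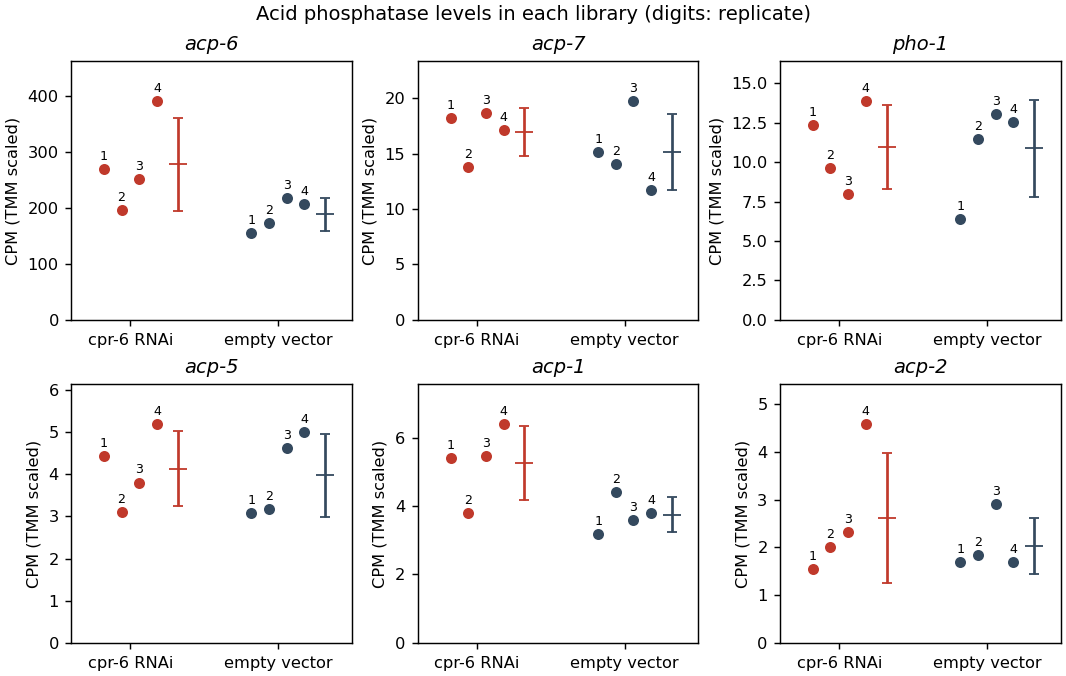
TMM-scaled CPM of the 6 acid phosphatase genes that passed the low-count filter, with a point for each library (digit: replicate number), cpr-6 RNAi in red and empty vector in dark blue, and the mean with its SD (n = 4) beside the points. For acp-6, replicate 4 of cpr-6 RNAi is highest at 393 CPM and replicate 1 of the empty vector lowest at 156 CPM, while the groups overlap in each of the 6 genes.

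acp-6 also varied much between libraries of the same treatment. Its coefficient of variation over the 4 empty vector libraries was 15.5%, beside a median of 5.89% for the 745 tested genes within 0.5 log2 units of its level. Over the 8 libraries its log2 level had a Pearson r of 0.88 with the first principal component (Spearman rho 0.71), and of 0.63 without cpr-6 RNAi replicate 4. 668 tested genes (6.11%) followed that component at least as closely, in either direction. The 5 hypodermis markers, all seen in every library, summed to 352, 336, 269 and 496 CPM in cpr-6 RNAi replicates 1 to 4, against 265, 270, 329 and 346 CPM in empty vector replicates 1 to 4, and their highest and lowest libraries were those of acp-6. The markers did not move alike: the adult cuticle collagen gene col-19, with 79.9 to 312 CPM over the 8 libraries, had an r of 0.80 with acp-6, while lin-26, a hypodermal transcription factor gene with 97.7 to 145 CPM, had an r of -0.78 and was lowest in cpr-6 RNAi replicate 4. The part of this shared variation, and of the muscle markers above, in the difference between the treatments was not tested. The order in which empty vector replicates 1 and 2 are the lowest libraries and cpr-6 RNAi replicate 4 is the highest, which acp-6 shows, occurred in 4.56% of tested genes.

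**Figure D2:**
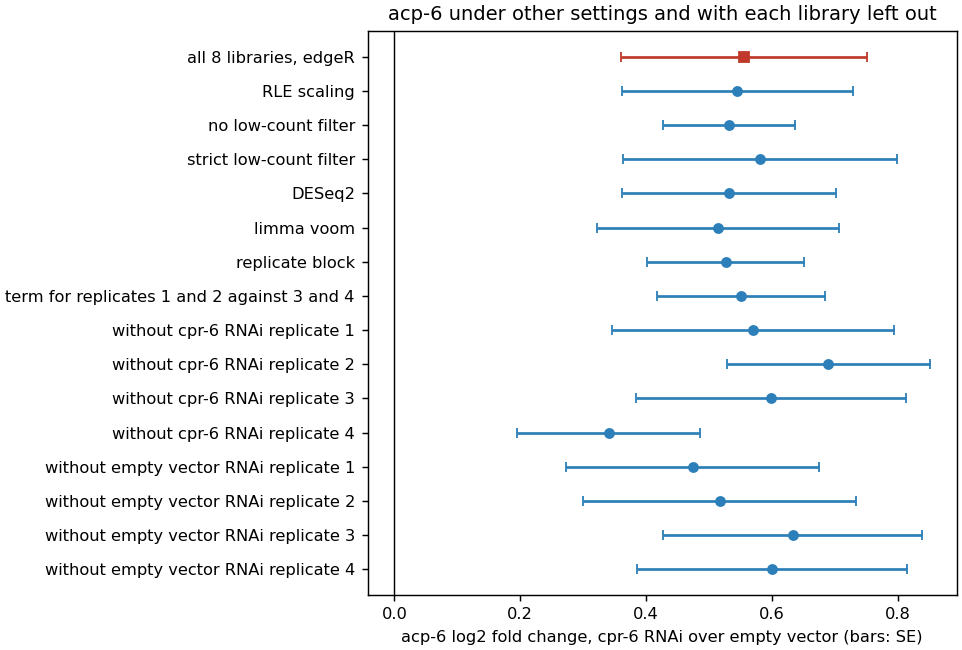
Log2 fold change of acp-6, cpr-6 RNAi over empty vector, with its SE, for all 8 libraries in edgeR (red square) and under other settings or with a library left out (blue points). All values are above 0, from 0.34 without cpr-6 RNAi replicate 4 to 0.69 without cpr-6 RNAi replicate 2.

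acp-1, on chromosome X (3382868 to 3385547, minus strand) and annotated as a putative acid phosphatase, was nearest to acp-6 in size of difference. It had 5.39, 3.80, 5.47 and 6.41 CPM in cpr-6 RNAi replicates 1 to 4, against 3.20, 4.41, 3.60 and 3.79 CPM in empty vector replicates 1 to 4. Again 3 cpr-6 RNAi libraries lay above all empty vector libraries and replicate 2 did not. These levels rest on 38 to 59 counts per library under cpr-6 RNAi and 30 to 47 with the empty vector. The log2 fold change of 0.49 ± 0.216 (SE; limma voom 95% interval 0.01 to 0.92) did not pass edgeR's test (unadjusted p 0.0395, adjusted p 0.997). An unadjusted p under 0.05 with a higher level under cpr-6 RNAi was found for 2.39% of all tested genes. In the authors' deposited table acp-1 has an unadjusted p of 0.0719 and so misses 0.05, which 2.26% of genes there pass with a higher level; acp-6 is the sole member that does. Replicates 1 and 2 alone gave 0.26 on the log2 scale, against 0.65 from replicates 3 and 4. The gene ZK563.7 overlaps acp-1 on the other strand. Since the use of strand in counting is not given, the counts of acp-1 may hold reads of it, or lack reads that fell in both. ZK563.7 itself stood at 4.30 CPM under cpr-6 RNAi and 3.94 CPM with the empty vector, on average.

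acp-7 is the neighbour of acp-6, 2165 bases away on the same strand (chromosome IV, 6428305 to 6431707), so that transcription runs from acp-7 towards acp-6. Over all 8 libraries acp-7 did not follow acp-6 closely. Its levels were 18.2, 13.8, 18.6 and 17.2 CPM in cpr-6 RNAi replicates 1 to 4, against 15.1, 14.1, 19.8 and 11.7 CPM in empty vector replicates 1 to 4. The highest of the 8 was an empty vector library, replicate 3. The log2 fold change was 0.16 ± 0.163 (SE; limma voom 95% interval -0.17 to 0.53), with an edgeR adjusted p of 0.997. Leaving out empty vector replicate 4 lowered it to 0.045, and leaving out empty vector replicate 3 raised it to 0.32. On the other side, puf-11, which encodes an RNA-binding protein of the Pumilio family and points towards acp-6 from 1102 bases away, stood at 515 CPM under cpr-6 RNAi and 513 CPM with the empty vector on average, a log2 fold change of 0.00. Among the 5 tested genes on each side of acp-6, log2 fold changes ran from -0.09 in exos-2 to 0.39 in nlp-71 and tyr-6, and none passed edgeR's test (adjusted p 0.997 or above).

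pho-1, the intestinal enzyme (chromosome II, 5233154 to 5235926, minus strand), had the same mean in both groups within its spread. Its levels were 12.3, 9.61, 7.98 and 13.9 CPM in cpr-6 RNAi replicates 1 to 4, against 6.39, 11.5, 13.03 and 12.6 CPM in empty vector replicates 1 to 4. The lowest library was empty vector replicate 1, and the remaining libraries of both groups interleaved. The log2 fold change was -0.0036 ± 0.222 (SE; limma voom 95% interval -0.50 to 0.48; edgeR adjusted p 0.999), and a difference inside that interval could not be seen with these libraries. With 1 library left out it ran from -0.18 (empty vector replicate 1) to 0.12 (cpr-6 RNAi replicate 3). Replicates 1 and 2 gave 0.34 on the log2 scale, replicates 3 and 4 gave -0.28, and a test of the gap between these values did not pass (edgeR adjusted p 0.997). EGAP2.1 overlaps pho-1 on the other strand and averaged 8.40 CPM under cpr-6 RNAi and 7.05 CPM with the empty vector. As with acp-1, the counts of pho-1 may hold reads of the overlapping gene, or lack reads that fell in both.

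acp-5 (chromosome X, 5829376 to 5832027, plus strand) had 4.43, 3.10, 3.80 and 5.198 CPM in cpr-6 RNAi replicates 1 to 4, against 3.09, 3.18, 4.63 and 4.99 CPM in empty vector replicates 1 to 4. Both groups covered the same range. The log2 fold change of 0.04 ± 0.241 (SE; limma voom 95% interval -0.48 to 0.53) did not pass edgeR's test (adjusted p 0.997), and ran from -0.089 with cpr-6 RNAi replicate 4 left out to 0.16 with empty vector replicate 4 left out. F13D11.4 overlaps acp-5 on the other strand and averaged 9.98 CPM under cpr-6 RNAi and 9.41 CPM with the empty vector, above acp-5 itself. As with acp-1, the counts of acp-5 may hold reads of the overlapping gene, or lack reads that fell in both. acp-2 (chromosome II, 8429959 to 8432054, minus strand) lies in a row of acid phosphatase genes, with acp-4 718 bases and then acp-3 241 bases further on, all on the same strand. It had 1.54, 2.002, 2.32 and 4.59 CPM in cpr-6 RNAi replicates 1 to 4, against 1.70, 1.85, 2.91 and 1.69 CPM in empty vector replicates 1 to 4. A single library, cpr-6 RNAi replicate 4, set it apart: the log2 fold change was 0.32 ± 0.345 (SE; limma voom 95% interval -0.48 to 0.92; edgeR adjusted p 0.997) with all libraries and -0.071 without that one, and its 16 to 38 counts per library leave it the least precise of the 6. Leaving out empty vector replicate 3 gave 0.55, and leaving out cpr-6 RNAi replicate 1 gave 0.51.

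Counted together, 5 of the 6 members that could be tested had a log2 fold change above 0, with a median of 0.24, beside 50.2% above 0 and a median of 0.00058 over all tested genes. Without acp-6 it was 4 of 5, with a median of 0.16. Without cpr-6 RNAi replicate 4, 3 of the 6 members (acp-6, acp-1 and acp-7) remained above 0. Both replicate pairs gave a value above 0 in 3 of the 6 (acp-6, acp-1 and acp-7), beside 25.8% of all genes. Of these, acp-6 was chosen for its difference in the same libraries, so its place there carries no support. No label ties the replicate numbers to a batch, so the pairs are a split by number only. None of the 6 passed at an adjusted p of 0.05 in edgeR, DESeq2 or limma voom. At an unadjusted p of 0.05 in edgeR 2 were higher, beside 2.39% of all genes, and 0 were lower, beside 1.46%. The 2 are acp-1 and acp-6, of which acp-6 was chosen for its difference. The groups overlapped in all 6, while 1.26% of all genes were higher and 1.25% lower with no overlap. With the filter on low counts removed, edgeR called 28 genes, acp-6 among them (log2 fold change 0.53, adjusted p 0.00118), and none of the other members, of which acp-1 had an adjusted p of 0.841 and acp-3, with its 7 counts, 0.969. Over the alternatives tried, the adjusted p of acp-6 ran from 0.00118 to 1.00, and this was the sole setting that called it. Summed over all 8 genes, the level was 312, 230, 291 and 440 CPM in cpr-6 RNAi replicates 1 to 4, against 185, 209, 263 and 243 CPM in empty vector replicates 1 to 4. Leaving acp-6 out of the sum, it was 42.1, 32.4, 38.2 and 47.4 CPM under cpr-6 RNAi, against 29.5, 35.1, 44.0 and 34.9 CPM with the empty vector, where the groups overlapped broadly.

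**Figure D3:**
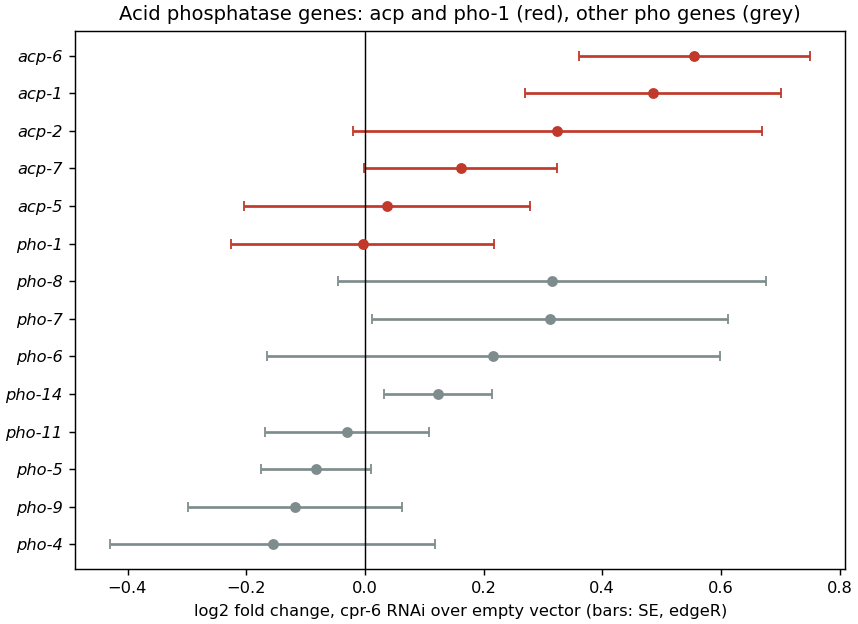
Log2 fold change of cpr-6 RNAi over empty vector in edgeR with its SE (8 libraries), for the 6 tested members (red) and the 8 tested pho genes outside them (grey), each ordered by value. acp-6 (0.56) and acp-1 (0.49) lie farthest to the right, pho-1 lies at -0.0036, and the other pho genes spread over both sides, from -0.16 to 0.32.

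Across the libraries, which member ran most nearly with acp-6 depended on the measure. It was acp-1 by Pearson r over all 8, and acp-5 by Spearman rho or with the treatment means taken out. Without the extreme libraries of acp-6, acp-7 and acp-1 came out alike and highest. The Pearson r of log2 CPM with acp-6 over the 8 libraries was 0.86 for acp-1 (Spearman rho 0.74), 0.73 for acp-5 (0.76), 0.71 for acp-2 (0.33), 0.55 for pho-1 (0.62) and 0.47 for acp-7 (0.52). These are descriptions over 8 libraries that share treatment, depth and composition, and the median r with acp-6 over all tested genes was -0.0034. For acp-1 the value lay at percentile 97.5 of all tested genes, for acp-5 at 91.4, for acp-2 at 89.6, for pho-1 at 80.3 and for acp-7 at 75.4. With the treatment means taken out, r was 0.74 for acp-1, 0.90 for acp-5, 0.73 for acp-2, 0.71 for pho-1 and 0.33 for acp-7. No percentile over all genes is given for these. Values as high were found outside the family, as in the neuron marker rab-3 and the intestine marker vha-6 (0.91 each), while lin-26 had -0.81. The extremes of acp-6, cpr-6 RNAi replicate 4 and empty vector replicate 1, weigh heavily in all these r values. Without those libraries r was 0.64 for acp-1, 0.64 for acp-7, 0.50 for acp-5, -0.03 for acp-2 and -0.16 for pho-1, so that the relation of acp-2 and of pho-1 to acp-6 rested on them.

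The genes most like acp-6 in pattern lay outside the family. By Pearson r of log2 CPM over the 8 libraries they were kynu-1 (0.99), which encodes kynureninase of tryptophan breakdown, the glutathione peroxidase gene gpx-5 (0.98), the cuticle collagen genes col-143 (0.97) and col-95 (0.97), and slc-25A10 (0.97), a mitochondrial carrier gene. kynu-1 had 179, 137, 154 and 259 CPM in cpr-6 RNAi replicates 1 to 4, against 105, 125, 146 and 137 CPM in empty vector replicates 1 to 4. As in acp-6, cpr-6 RNAi replicate 4 was highest and empty vector replicates 1 and 2 were lowest. In all, 148 tested genes had an r of 0.9 or more with acp-6. Without cpr-6 RNAi replicate 4, r was 0.97 for kynu-1 and 0.96 for gpx-5, beside 0.77 for acp-1. kynu-1 and gpx-5 had the highest r of all tested genes outside the family, so the choice itself favours them over acp-1. Low counts also add counting noise, which lowers an r. acp-1 had 30 to 59 counts per library, against 982 to 2140 for kynu-1 and 485 to 912 for gpx-5. The 5 genes were chosen by their likeness to acp-6. Their log2 fold changes of 0.28 to 0.61, none past edgeR's test, are given as a description.

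**Figure D4:**
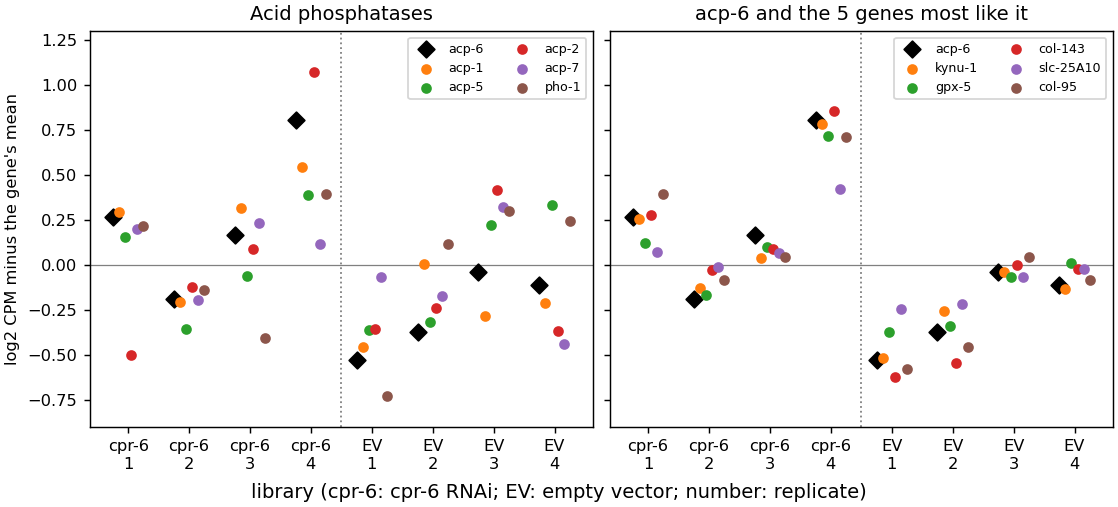
Log2 CPM of each gene minus its mean over the 8 libraries (vertical axis), by library (horizontal axis, cpr-6 RNAi left of the dotted line and empty vector right of it), for the 6 tested acid phosphatases (left panel) and for acp-6 with the 5 genes most like it by Pearson r (right panel). In the right panel the points keep close to acp-6 (black diamonds) in every library, as their r of 0.97 to 0.99 says, while in the left panel acp-7 (r = 0.47) and pho-1 (r = 0.55) depart from it. The genes of the right panel were chosen for their r, so their closeness follows from the choice.

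The fold changes of the remaining histidine acid phosphatases lay on both sides of 0. Of the 11 other pho genes found in the table, 8 could be tested, 4 had a log2 fold change above 0 and 4 below, the median was 0.046, and none passed edgeR's test (0 at an unadjusted p of 0.05). pho-5, the most abundant, stood at 92.1 ± 8.70 CPM under cpr-6 RNAi and 97.6 ± 4.91 CPM with the empty vector (SD, n = 4 each), a log2 fold change of -0.083 ± 0.0921 (SE). pho-14 had 63.2 ± 4.87 CPM under cpr-6 RNAi and 58.0 ± 2.47 CPM with the empty vector (0.12 ± 0.0915), and pho-11 had 30.7 ± 4.15 CPM under cpr-6 RNAi and 31.4 ± 5.47 CPM with the empty vector (-0.03 ± 0.138). Log2 fold changes were -0.12 for pho-9, -0.16 for pho-4, which lies 410 bases from pho-1 on the same strand, and 0.22, 0.31 and 0.32 for the scarce pho-6, pho-7 and pho-8. Their summed level was nearly constant, at 194 to 209 CPM under cpr-6 RNAi and 199 to 207 CPM with the empty vector. cpr-6 RNAi replicate 4, the highest library for acp-6, was the lowest for this sum, to which pho-5 contributed most. The single genes differed in this. Over the 8 libraries the Pearson r with acp-6 was 0.85 for pho-7 (Spearman rho 0.93, on 9 to 24 counts per library). It was 0.77 for pho-14, 0.63 for pho-8, 0.37 for pho-4 and 0.33 for pho-6. Below 0 lay pho-11 (-0.33), pho-9 (-0.50) and pho-5 (-0.72).

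A further 9 genes that the deposited table describes as acid phosphatases, or annotates with that activity, bear neither name, and this list was drawn up after the data had been seen. Of these, 5 could be tested and none passed. papl-1, a purple acid phosphatase gene, stood at 16.5 ± 5.39 CPM under cpr-6 RNAi and 15.3 ± 1.57 CPM with the empty vector (log2 fold change 0.09), and the purple acid phosphatase genes Y105C5B.15 and F21A3.11 had log2 fold changes of 0.13 and -0.03. F02E9.7 had one of -0.11. The scarce F26C11.1 stood at 1.55 ± 0.128 CPM under cpr-6 RNAi and 1.04 ± 0.127 CPM with the empty vector (SD, n = 4 each) with no overlap, on 8 to 17 counts per library, and did not pass edgeR's test (log2 fold change 0.57 ± 0.298, adjusted p 0.997). A higher level with no overlap was found for 1.26% of all tested genes.

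The gene of the GATA factor ELT-2, which acts on intestinal promoters such as that of pho-1, was examined beside them, with its relatives elt-7 and elt-4. elt-2 stood at 11.8, 13.5, 11.2 and 16.9 CPM in cpr-6 RNAi replicates 1 to 4, against 9.06, 8.11, 14.2 and 12.3 CPM in empty vector replicates 1 to 4. Its groups overlapped, and the log2 fold change of 0.28 ± 0.190 (SE) did not pass edgeR's test (adjusted p 0.997). For its relatives elt-7 and elt-4 it was 0.09 ± 0.179 and 0.20 ± 0.385, the latter on 4 to 18 counts per library. Among lysosomal hydrolases of other kinds, 32 of 37 listed genes could be tested, 17 lay above 0 and 15 below, the median log2 fold change was 0.02 and none passed. At an unadjusted p of 0.05 edgeR had 1 of the 32 higher, beside 2.39% of all genes, and 2 lower, beside 1.46%. The higher one was the aspartyl protease gene asp-4, at 411, 341, 388 and 439 CPM in cpr-6 RNAi replicates 1 to 4, against 335, 332, 295 and 294 CPM in empty vector replicates 1 to 4. It was the sole gene of the 32 that was higher with no overlap, beside 1.26% of all genes (log2 fold change 0.33 ± 0.0899, edgeR unadjusted p 0.00216, adjusted p 0.997). The lower ones were asah-1, an acid ceramidase gene, at 95.4 CPM under cpr-6 RNAi and 116 CPM with the empty vector on average (log2 fold change -0.29), and the lipase gene lipl-1, at 18.4 CPM under cpr-6 RNAi and 24.8 CPM with the empty vector (-0.43). These 3 are named for their p, after their values were seen. The 3 most abundant genes of the list had log2 fold changes of -0.06 (asp-3), -0.05 (asp-1) and 0.18 (cpl-1, for cathepsin L).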

How the data were processed

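Whole-worm RNA was sequenced by CEL-Seq2, per the labels' protocols, a method that reads 3′ ends. The authors deposited raw counts, normalized counts and their own log2 fold changes and p-values (other values of the same table) for 46904 genes. The submitters' processing notes name WBcel235 and, as tools, DESeq2 1.30.1, HTSeq 0.12.4, TopHat2 2.1.1 and cutadapt 2.10. The authors' normalized-count columns carry the word noBatch in their names, and which libraries a batch would hold is not given in the labels. The sources used here do not give the annotation release, strand, molecular identifiers or model terms. The deposited Wald score was not used.

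Raw counts were analysed in R 4.3.3 with edgeR 4.0.16 (TMM scaling, filterByExpr at 10 counts, the robust two-sided quasi-likelihood test, treatment as sole term), with Benjamini-Hochberg adjustment over 10932 genes and a threshold of 0.05. The 95% intervals come from limma 3.58.1 voom. Correlations use log2 CPM (prior count 2). Positions are those of the deposited table, and exons, gaps and lengths those of Ensembl's WBcel235 annotation. The 8 members, the gene lists and the tests were chosen with earlier results of these data known. Named were all members, cpr-6, the 5 genes most correlated with acp-6, and listed genes. Alternatives were RLE scaling, no filter, a filter at 50, DESeq2 1.42.0, voom, the replicate block, a term separating replicates 1 and 2 from 3 and 4, and each library left out.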

Additional observations from a re-analysis of the deposited data

Results flagged for a closer look

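In acp-2, empty vector replicate 3 lay far from the other 3 empty vector libraries, at 2.91 CPM against 1.69 to 1.85 CPM. Its gap to the nearest of them made up 0.873 of the group's range. The levels rest on 34 counts in that library and 16 to 21 in the others. Of the 14 groups examined (6 members and cpr-6, under cpr-6 RNAi and with the empty vector), this was the sole one past the limit, and chance passes about 1 in 20.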

How the results depend on the processing

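The number of genes called by edgeR was 1, against 28 with no low-count filter, 5 with DESeq2 and 2 with the replicate block, and 1 to 3 with a library left out (2 when cpr-6 RNAi replicate 2 was dropped, 3 when replicate 4 of that group was). The number of members called was 0, against 1 (acp-6) with no low-count filter, and 0 under every other alternative tried. The cause was not tested. acp-6 and acp-1 stayed above 0 in all 15 and 14 alternatives that gave them a value, from 0.34 to 0.69 and from 0.38 to 0.61 on the log2 scale, and acp-7 in 15 of 15. The pho-1 value of -0.0036 was above 0 with the strict low-count filter (0.016), the replicate block (0.014) and the term for replicates 1 and 2 against 3 and 4 (0.016), and ran from -0.18 to 0.12 with a library left out. Leave-outs gave -0.071 to 0.55 for acp-2 and -0.089 to 0.16 for acp-5. acp-1, acp-2 and acp-5 were removed by the strict filter. Deviations of same-numbered libraries correlated at -0.03, 0.12, 0.02 and 0.25 for replicates 1 to 4. With empty vector replicates 1 to 4, cpr-6 RNAi replicate 2 correlated at 0.18, 0.12, -0.17 and -0.16. Replicate 4 did so at -0.14, -0.17, 0.08 and 0.25, and replicates 1 and 3 at -0.14 to 0.07. Such values cannot exclude a batch, and the main fit has no term for one. The replicate block gave acp-6 0.53 on the log2 scale, with an edgeR adjusted p of 0.498. The term for replicates 1 and 2 against 3 and 4 gave acp-6 0.55 ± 0.133 (SE), with an edgeR adjusted p of 0.680. Depth limits acp-3 and acp-4 most, which could not be tested, and then acp-2, acp-1 and acp-5, with at most 62 counts in a library.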
